A study of Mus musculus with 4 samples.

Results

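The genes described here are 36 cell cycle and proliferation genes, a list given by symbol and covering G1 control, DNA replication, nucleotide supply and mitosis. All 36 are among the 21883 features of both deposited tables. Their levels were measured by RNA sequencing in young adult male wild-type mice (strain BL6/C57) whose sciatic and femoral nerves were transected on the left side 7 days before the RNA was taken. The 4 libraries come from dorsal root ganglia (DRG) of lumbar levels 4 to 6, which hold the cell bodies of the cut sensory axons, and from lumbar dorsal spinal cord. Each tissue has 1 library of the injured (ipsilateral) side and 1 of the other (contralateral) side. Both sides come from operated mice, so the contralateral libraries are not from unoperated animals. No source used here says how many animals went into a library. No difference below has a replicate check.

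Levels are in FPKM, that is, sequenced fragments counted relative to transcript length and to the size of the library. A gene counts as measured in a tissue where at least 1 of its libraries reaches 1 FPKM, which held for 28 of the 36 genes in DRG and for 22 in dorsal cord. The 22 genes measured in cord were all measured in DRG. Just inside the limit were Cdk2 in DRG, at most 1.03 FPKM, and Rrm2 in cord, at most 1.33 FPKM. Just outside it were Tyms in DRG, at most 0.679 FPKM, and Mcm5 in cord, at most 0.934 FPKM. Differences between sides are given as the log2 of (ipsilateral + 1) over (contralateral + 1), called the log2 ratio, which understates the difference of low genes. Genes with a log2 ratio no smaller than 1 are called 2-fold higher, and those no larger than -1 2-fold lower. Plain folds are ratios of FPKM without the added 1. The 95% interval given with some of them was derived from the test statistic in the authors' deposited table and leaves out variation between animals. Because the tissue is bulk RNA, fewer cells of a type and less RNA per cell cannot be told apart.

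A cell enters division when D-type cyclins bind the kinases CDK4 and CDK6 and, with cyclin E and CDK2, release E2F transcription factors from the retinoblastoma protein. The p27 and p57 inhibitors hold those kinases back. E2F targets such as PCNA and the MCM helicase then copy the DNA, and cyclins A and B with CDK1 drive mitosis. Genes of the last phase are expressed almost only in dividing cells. Mature neurons do not divide. After a peripheral nerve injury, microglia in the dorsal horn are known to proliferate, and satellite glia, Schwann cells and macrophages can do so in the ganglion.

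Promoters were compared because many mitotic genes share a CHR element with CCAAT boxes, bound by the DREAM complex and the factor NF-Y, while replication genes often carry E2F sites. The RefSeq promoter table (GRCm38.p6, 250 bases before to 50 after each start) matched 29 of the 36 genes, with 31 windows. Ccnd1, Ccnd2, Ccne2, Cdkn1c, Mcm4, Ccna2 and Aurkb had no entry. Printed are Mki67, Top2a and Aurka, measured mitotic genes that were higher in both DRG libraries than in both cord libraries. Birc5 was the other such gene. Its window is not printed and holds none of the motifs searched. Cdk1 is printed because its window holds all 3 motifs. Of the Mcm7 windows, the one starting at 138171834 also holds all 3, and the one starting at 138171217 holds CCAAT only. Cks2 and Cdk6 are the genes with the largest plain folds between sides in cord. Each is written 5′ to 3′ on the strand of the gene. Capitals mark matches on either strand to CCAAT, to the CHR words TTTGAA and TTCGAA, and to the E2F words TTTCGCGC, TTTGGCGC, TTTCCCGC and TTTGCCGC. No 2 of these words overlapped in the windows shown.
Mki67 (chr7:135716330-135716629, minus strand): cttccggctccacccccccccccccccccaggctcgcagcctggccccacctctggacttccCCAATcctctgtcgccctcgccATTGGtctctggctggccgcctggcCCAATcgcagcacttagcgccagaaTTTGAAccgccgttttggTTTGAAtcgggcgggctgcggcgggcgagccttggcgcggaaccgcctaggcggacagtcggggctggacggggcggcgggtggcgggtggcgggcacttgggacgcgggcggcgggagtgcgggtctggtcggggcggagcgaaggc
Top2a (chr11:99024140-99024439, minus strand): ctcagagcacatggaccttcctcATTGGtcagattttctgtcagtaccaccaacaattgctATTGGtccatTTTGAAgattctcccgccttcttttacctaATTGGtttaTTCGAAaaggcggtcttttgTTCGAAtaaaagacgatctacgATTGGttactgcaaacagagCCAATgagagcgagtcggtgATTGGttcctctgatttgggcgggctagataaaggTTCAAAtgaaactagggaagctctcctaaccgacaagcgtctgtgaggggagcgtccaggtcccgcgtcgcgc
Aurka (chr2:172370521-172370820, minus strand): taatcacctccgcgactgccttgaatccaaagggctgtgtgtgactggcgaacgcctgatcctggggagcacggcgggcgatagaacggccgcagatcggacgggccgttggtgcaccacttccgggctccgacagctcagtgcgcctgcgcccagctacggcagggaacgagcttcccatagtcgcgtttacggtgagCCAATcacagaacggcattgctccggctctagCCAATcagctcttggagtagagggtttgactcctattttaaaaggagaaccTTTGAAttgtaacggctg
Cdk1 (chr10:69352863-69353162, minus strand): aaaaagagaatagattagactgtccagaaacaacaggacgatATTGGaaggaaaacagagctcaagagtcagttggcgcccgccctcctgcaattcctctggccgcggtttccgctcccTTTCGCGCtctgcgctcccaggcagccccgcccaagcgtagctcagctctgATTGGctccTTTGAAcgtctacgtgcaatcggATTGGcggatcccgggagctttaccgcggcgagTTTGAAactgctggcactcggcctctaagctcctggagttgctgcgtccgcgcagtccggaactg
Cks2 (chr13:51644982-51645281, plus strand): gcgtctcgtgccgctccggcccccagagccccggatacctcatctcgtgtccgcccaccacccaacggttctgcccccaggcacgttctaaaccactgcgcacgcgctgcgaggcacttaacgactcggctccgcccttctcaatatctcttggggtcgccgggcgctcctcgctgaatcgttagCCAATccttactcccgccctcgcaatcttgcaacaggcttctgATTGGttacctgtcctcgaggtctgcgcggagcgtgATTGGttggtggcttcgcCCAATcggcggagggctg
Cdk6 (chr5:3343643-3343942, plus strand): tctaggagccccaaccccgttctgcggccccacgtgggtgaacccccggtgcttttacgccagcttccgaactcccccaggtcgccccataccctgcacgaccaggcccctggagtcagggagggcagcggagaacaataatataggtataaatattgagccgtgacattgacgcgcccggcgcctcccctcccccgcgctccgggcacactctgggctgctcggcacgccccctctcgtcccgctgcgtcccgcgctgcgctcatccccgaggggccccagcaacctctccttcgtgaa

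The CHR words were found in 9 of the 11 windows of the mitotic genes and in 3 of the 20 windows of the other members, against 19.2% of all 32851 promoter windows. CCAAT was found in 10 of the 11 and in 14 of the 20, against 37.4% of all windows. The E2F words were found in 1 of the 11 and in 5 of the 20, against 2.26% of all windows. The Mki67 window holds 2 CHR words and 3 CCAAT boxes, and the Top2a window 4 and 6. The Cks2 window holds 4 CCAAT boxes and no CHR word of this spelling. The Cdk6 and Birc5 windows hold none of the letters searched. A match is a description of the sequence and not a shown binding site.

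The libraries carried the markers of their tissue. The 6 sensory neuron markers summed to 1475 FPKM in ipsilateral and 1861 in contralateral DRG, and to 11.3 and 5.58 in cord. The 5 spinal neuron markers summed to 339.5 and 458 in cord and to 232.5 and 258.6 in DRG, so this sum separates the tissues little. Of these markers, Gad1 was at 45.8 and 91.8 FPKM in cord and 0.145 and 0.328 in DRG. Slc32a1 was at 54.9 and 70.3 in cord and 0 and 0.264 in DRG. Slc17a6, Syt1 and Rbfox3 were high in both tissues. The summed FPKM of all features was 442298 ipsilaterally and 431795 contralaterally in DRG, and 442196 and 425636 in cord. The absolute depth is not given. The median log2 ratio of all measured features was 0.05 in DRG and 0.02 in cord.

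In DRG, the cell cycle genes were nearly level between the sides. None of the 28 measured genes was 2-fold higher or 2-fold lower ipsilaterally, where 3.04% of the 13137 measured features were 2-fold higher and 0.784% 2-fold lower. The median log2 ratio of the 28 was 0.03, with 16 genes above 0 (56.1% of all measured features were) and 12 below, and the range ran from -0.54 (Mcm2) to 0.70 (Ccnd2). The authors' deposited table calls none of the 28 significant in either direction, against 4.65% of measured features called higher and 1.97% called lower. Ccnd2 and Mcm2 are the 2 of the 28 with an unadjusted p-value under 0.05 there.

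In dorsal cord, 2 of the 22 measured genes were 2-fold higher ipsilaterally, where 4.46% of the 13351 measured features were. These were Ccna2, the gene of cyclin A2, and Cdk6, a G1 kinase gene. Cks2, which encodes a small CDK-binding subunit, was the only measured member 2-fold lower, where 1.64% of features were. The median log2 ratio of the 22 was -0.04, with 10 genes above 0 (51.6% of all measured features were) and 12 below. The authors' deposited table calls the same 3 genes significant. It calls 4.64% of the measured features higher and 1.58% lower.

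**Figure D1:**
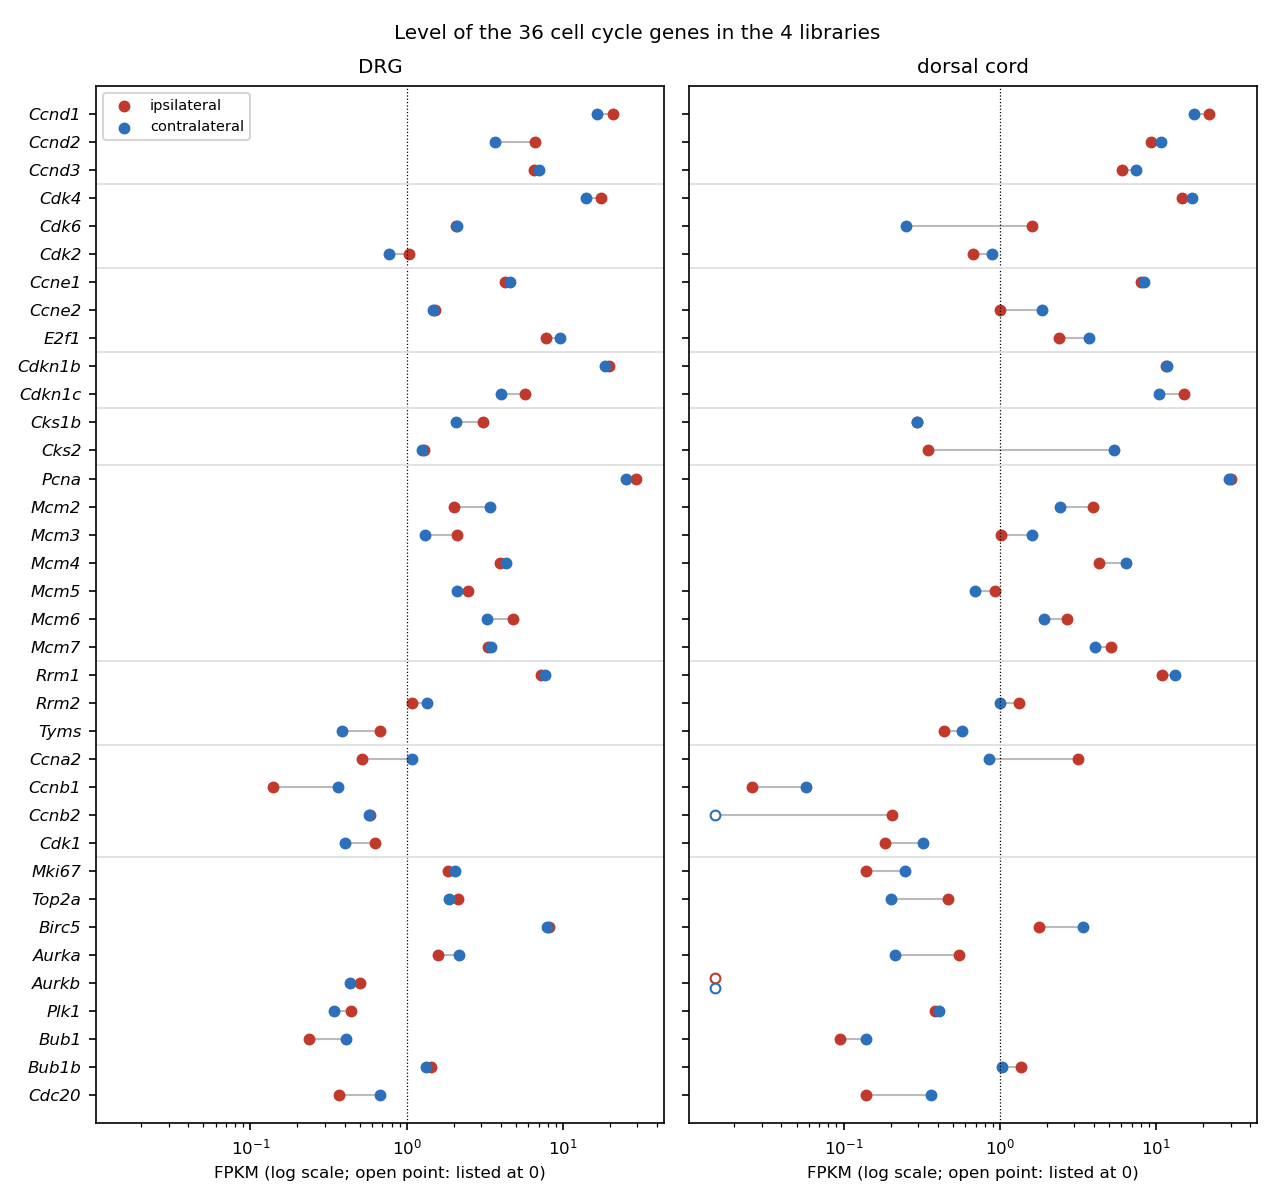
FPKM on a log axis of the 36 genes in DRG and in dorsal cord, with 1 point per library (red ipsilateral, blue contralateral, open points listed at 0 and placed at the left edge). Grey lines separate the roles and the dotted line marks 1 FPKM. The widest gaps between sides in cord among measured genes are those of Cdk6, Cks2 and Ccna2, and most mitotic genes at the bottom lie left of the dotted line in cord.

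**Figure D2:**
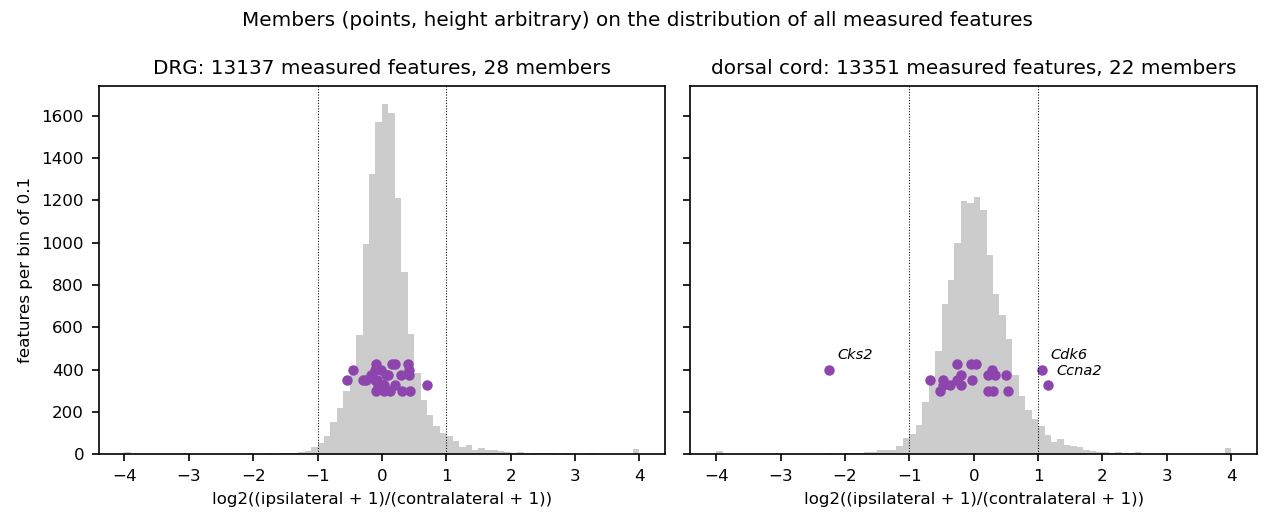
Log2 ratios of all measured features as a histogram (bins of 0.1, values beyond 4 gathered in the last bins) with the measured members as purple points whose height has no meaning. All 28 members lie between the dotted 2-fold lines in DRG, and 3 of 22 lie outside them in cord.

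D-type cyclins take up growth signals at the start of the cycle and are also present in many resting cells. Ccnd1 stood at 20.9 FPKM in ipsilateral and 16.6 in contralateral DRG, and at 21.7 and 17.5 in cord. It was thus among the most abundant members, with the ipsilateral library higher in both tissues by similar amounts (log2 ratio 0.31 in DRG and 0.29 in cord). The interval of its fold spanned 1 in both tissues, from 0.878 to 1.80 in DRG and from 0.864 to 1.77 in cord, in the authors' deposited table.

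Ccnd2 stood at 6.63 FPKM in ipsilateral and 3.69 in contralateral DRG, and at 9.33 and 10.8 in cord. It had the highest log2 ratio of the measured members in DRG (0.70) and was slightly lower ipsilaterally in cord (-0.20). The DRG fold of 1.80 had an interval of 1.20 to 2.69, and it is not among the calls of the authors' deposited table (q = 0.0620). Ccnd2 lies on mm9 chromosome 6 from 127075726 to 127101066, as the tables list it. Ccnd3 was at 6.50 against 7.06 FPKM in DRG (-0.10) and at 6.03 against 7.39 in cord (-0.25), with the contralateral library higher in both. It shares its listed locus with Bysl, which was at 6.12 against 5.99 FPKM in DRG and 4.87 against 3.98 in cord.

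The kinases partnered by these cyclins differed among themselves. Cdk4 stood at 17.6 FPKM in ipsilateral and 14.1 in contralateral DRG, and at 14.6 and 16.9 in cord, so the side with the higher level was not the same in the 2 tissues. Cdk6 stood at 2.07 and 2.09 FPKM in ipsilateral and contralateral DRG, and at 1.62 and 0.251 in cord. The contralateral cord library is the low one of the 4. In cord the Cdk6 log2 ratio was 1.06 and the plain fold 6.45, with an interval of 2.11 to 19.7 and q = 0.0266 in the authors' deposited table. Its log2 ratio was under 1 with a pseudocount of 3 FPKM. Cdk6 lies on mm9 chromosome 5 from 3344311 to 3522225. Cdk2, the partner of cyclin E, was at 1.03 against 0.771 FPKM in DRG (0.20) and under 1 FPKM in both cord libraries.

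E-type cyclins and E2F1 carry the cell into DNA synthesis. Ccne1 was at 4.26 FPKM ipsilaterally and 4.62 contralaterally in DRG (-0.10), and at 8.05 and 8.36 in cord (-0.05). Ccne2 was at 1.51 and 1.47 FPKM in DRG (0.02), and at 1.001 and 1.87 in cord (-0.52). E2f1 was at 7.83 and 9.52 FPKM in DRG (-0.25), and at 2.40 and 3.72 in cord (-0.47). All 3 genes were lower on the injured side in cord, none of them 2-fold, and the interval of each fold spanned 1. Ccne2 shares its listed locus with Ints8, which was at 10.2 and 9.74 FPKM in DRG and at 7.99 and 9.98 in cord.

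The CDK inhibitors were among the better expressed members. Cdkn1b, encoding p27, stood at 19.8 FPKM in ipsilateral and 18.6 in contralateral DRG, and at 11.5 and 11.8 in cord. Its log2 ratio was near 0 in both tissues, 0.09 and -0.02. Cdkn1c, encoding p57, stood at 5.71 and 3.99 FPKM in DRG (0.43), and at 15.2 and 10.4 in cord (0.51). The ipsilateral library was the higher one in both tissues, by a plain fold of 1.43 in DRG (interval 0.851 to 2.40) and of 1.46 in cord (0.915 to 2.33).

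The CDK-binding subunits Cks1b and Cks2 had unlike values in cord. Cks2 stood at 1.29 FPKM in ipsilateral and 1.25 in contralateral DRG, and at 0.348 and 5.38 in cord. The contralateral cord library is the high one of the 4. Its log2 ratio in cord was -2.24, and the contralateral level was 15.4 times the ipsilateral one, with an interval of 3.85 to 61.9 and q = 0.00547 in the authors' deposited table. Cks2 lies on mm9 chromosome 13 from 51740600 to 51746031. Its near relative Cks1b was at 3.08 against 2.07 FPKM in DRG (0.41) and at 0.296 against 0.293 in cord. No source used here says how reads shared by related genes were assigned.

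PCNA, the sliding clamp of DNA polymerases, was the highest member in all 4 libraries. Pcna stood at 29.4 FPKM in ipsilateral and 25.4 in contralateral DRG (0.20), and at 30.3 and 29.4 in cord (0.04). PCNA also serves DNA repair in cells that do not divide. The 6 MCM genes encode the ring that unwinds DNA at the fork, and their levels lay far below that of Pcna, between 0.693 and 6.45 FPKM.

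Mcm2 stood at 2.02 FPKM in ipsilateral and 3.40 in contralateral DRG, and at 3.97 and 2.42 in cord. It was the lowest log2 ratio of the members in DRG (-0.54) and the highest of the MCM genes in cord (0.54). In DRG the plain fold was 0.594 with an interval of 0.357 to 0.986, and it is not called in the authors' deposited table either (q = 0.278). Mcm3 went the other way, at 2.09 against 1.31 FPKM in DRG (0.42) and at 1.02 against 1.60 in cord (-0.37). Of the 5 MCM genes measured in cord, 3 were higher and 2 lower ipsilaterally, and of the 6 in DRG, 3 were higher and 3 lower.

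Mcm6 was higher ipsilaterally in both tissues, at 4.77 against 3.28 FPKM in DRG (0.43) and 2.70 against 1.93 in cord (0.34). Mcm4 was lower in both, at 3.95 against 4.35 FPKM in DRG (-0.11) and 4.33 against 6.45 in cord (-0.48). Mcm7 was at 3.31 against 3.48 FPKM in DRG (-0.05) and 5.16 against 4.05 in cord (0.29). Mcm5 was at 2.48 against 2.11 FPKM in DRG (0.16) and under 1 in both cord libraries. Apart from Mcm2 in DRG, the interval of every measured MCM gene spanned 1 in both tissues.

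Nucleotide synthesis genes supply the building blocks of DNA. Rrm1, the large subunit of ribonucleotide reductase, was at 7.25 and 7.68 FPKM in ipsilateral and contralateral DRG (-0.07), and at 10.9 and 13.3 in cord (-0.26). Rrm2, the small subunit made mainly in S phase, was at 1.09 and 1.35 FPKM in DRG (-0.17) and 1.33 and 1.01 in cord (0.21). The large subunit gene was thus several times more abundant than the S-phase one in every library. Tyms, encoding thymidylate synthase, stayed under 1 FPKM in all 4 libraries.

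Most mitotic genes were low, Birc5 in DRG being the exception. Of the 13 mitotic members, 5 reached 1 FPKM in ipsilateral and 6 in contralateral DRG, and 3 in ipsilateral and 2 in contralateral cord. Their summed level was 18.6 FPKM ipsilaterally and 19.6 contralaterally in DRG, and 8.46 and 7.26 in cord. In cord this sum rests on Ccna2, which was higher ipsilaterally, and Birc5, which was lower. Without Birc5 the cord sums were 6.69 and 3.83 FPKM, without Ccna2 5.31 and 6.40, and without both 3.54 and 2.98. The side with the higher cord sum thus depends on single genes. Ccnb1, Ccnb2, Cdk1, Aurkb, Plk1, Bub1 and Cdc20 stayed under 1 FPKM in all 4 libraries. Aurkb is listed at 0 in both cord libraries and Ccnb2 in contralateral cord. Together with Tyms, these are the 8 members measured in neither tissue.

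Ccna2, whose protein acts in S phase and at the entry into mitosis, stood at 0.516 FPKM in ipsilateral and 1.08 in contralateral DRG, and at 3.15 and 0.858 in cord. The ipsilateral cord library is the high one of the 4. In cord the log2 ratio was 1.16 and the plain fold 3.67, with an interval of 1.67 to 8.08 and q = 0.0283 in the authors' deposited table. In DRG the log2 ratio was -0.45, and the interval of the fold, 0.227 to 1.01, spanned 1. As for Cdk6, the cord log2 ratio was under 1 with a pseudocount of 3 FPKM.

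The tables list Ccna2 and Exosc9, an exosome subunit gene, under 1 locus on mm9 chromosome 3 from 36451527 to 36470918. In the GENCODE M21 annotation of GRCm38 the genes lie on opposite strands and overlap by 863 bases. Exosc9 was at 32.1 against 27.4 FPKM in cord (0.22), and at 40.1 against 33.8 in DRG (0.24). No source used here says whether counting used the strand, so reads of the overlap cannot be told apart. The part of Exosc9 in the Ccna2 values was not tested.

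Mki67, the gene of the Ki-67 antigen used to mark dividing cells, stood at 1.84 FPKM in ipsilateral and 2.04 in contralateral DRG, and at 0.138 and 0.247 in cord. Top2a, encoding the topoisomerase that untangles chromosomes, stood at 2.14 and 1.87 FPKM in DRG and at 0.469 and 0.202 in cord. For both genes the DRG libraries lie close together and both are above both cord libraries. The DRG log2 ratio was -0.10 for Mki67 (interval of the fold 0.590 to 1.38) and 0.13 for Top2a (0.701 to 1.86).

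Birc5, encoding the survivin subunit of the chromosomal passenger complex, stood at 8.19 FPKM in ipsilateral and 7.94 in contralateral DRG (0.04), and at 1.77 and 3.42 in cord (-0.67). It was the most abundant mitotic member in DRG and, in cord, the one measured mitotic gene that was lower ipsilaterally. The cord interval of the fold, 0.196 to 1.37, spanned 1. Aurka, a spindle kinase gene, was at 1.58 and 2.15 FPKM in DRG (-0.29) and under 1 in both cord libraries. Bub1b, a checkpoint gene, was at 1.44 and 1.32 FPKM in DRG (0.07) and at 1.36 and 1.03 in cord (0.21).

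**Figure D3:**
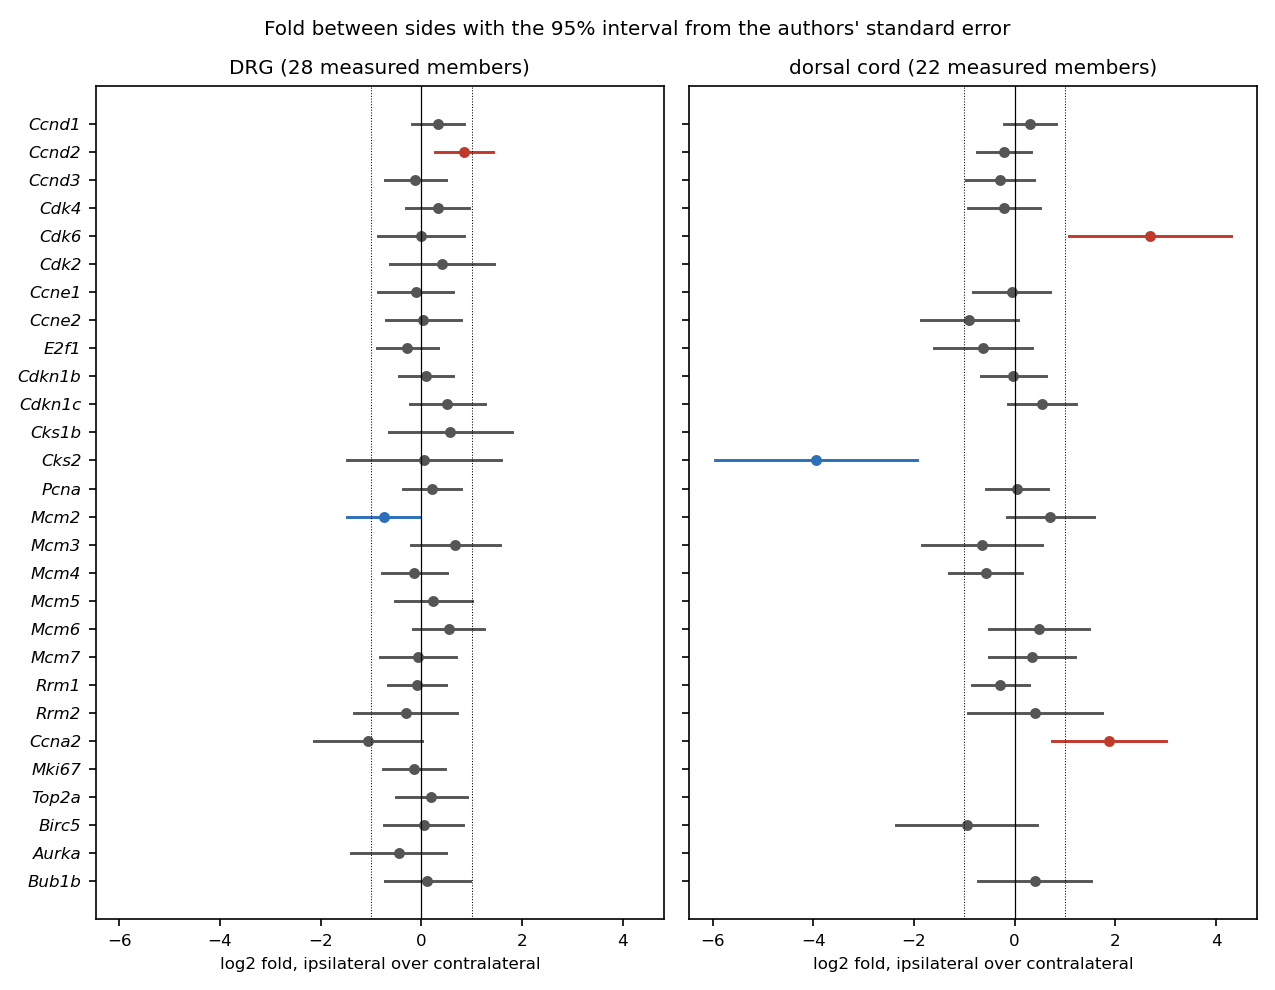
Plain log2 fold, ipsilateral over contralateral, of the measured members (points) with the 95% interval implied by the authors' deposited table (bars), on the same axis for both tissues. Red and blue mark intervals wholly above or below 0, which are Ccnd2 and Mcm2 in DRG and Cdk6, Ccna2 and Cks2 in cord, and grey marks the 26 and 19 others. Dotted lines mark 2-fold.

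Over all members, the interval of the plain fold lay above 1 for 1 of the 28 genes in DRG, against 10.1% of measured features, and below 1 for 1, against 6.35%. In cord it lay above 1 for 2 of the 22 genes, against 12.4%, and below 1 for 1, against 7.99%. These shares are near or under the background. Of the 22 genes measured in both tissues, 5 had a log2 ratio above 0 in both and 5 below 0 in both. A further 7 were above 0 in DRG and below in cord, and 5 the reverse. The fold of 5 of the 22 genes differed between the tissues by more than the interval of the difference allows, against 16.7% of the 12074 features measured in both.

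Levels were also set side by side across tissues, which is approximate because the 2 tables were normalised separately. Of the 28 members that reached 1 FPKM in any library, 10 had both DRG libraries above both cord libraries, against 31% of all 14259 such features. Another 6 had both cord libraries above both DRG libraries, against 38.7%. The 10 comprised Mki67, Top2a, Birc5, Aurka, E2f1, Cdkn1b, Cdk6, Cks1b, Mcm5 and Mcm6. The 6 were Ccnd2, Ccne1, Cdkn1c, Pcna, Mcm7 and Rrm1, with Pcna apart by only 29.36 against 29.38 FPKM between the nearest libraries.

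Passing 1 FPKM in any library selects for a difference between tissues, and 6 of the 28 members, among them Mki67, Top2a and Aurka, passed through their DRG levels alone. Over all 36 members with no filter, 16 had both DRG libraries above both cord libraries, against 24.6% of all 21883 features, and 6 the reverse, against 28%. Of the 13 mitotic members with no filter, 10 had both DRG libraries higher and 0 both cord libraries, while Ccna2, Plk1 and Bub1b overlapped. Of these 13, 7 were under 1 FPKM in all 4 libraries. Mean levels in DRG and cord were 1.94 and 0.193 FPKM for Mki67, 2.01 and 0.336 for Top2a, 8.07 and 2.60 for Birc5, and 1.86 and 0.380 for Aurka. In the opposite direction, Cdkn1c had a mean of 4.85 FPKM in DRG and 12.8 in cord.

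Marker lists of other cells were set beside these levels. The 6 neutrophil markers summed to 272.5 FPKM in ipsilateral and 288.5 in contralateral DRG, and to 0.871 and 0.465 in cord, where 5 of 6 are listed at 0 ipsilaterally and 3 of 6 contralaterally. In DRG 5 of the 6 were measured, among them Ngp, a granule protein gene of maturing neutrophils, at 53.6 and 64.0 FPKM, and Mpo, a gene of early precursors, stayed under 1 FPKM. The 5 red cell lineage markers summed to 13629 and 13836 FPKM in DRG and to 142 and 215 in cord, with Alas2, the heme synthesis gene of red cell precursors, at 120 and 125 in DRG. The single genes named from these lists were chosen after their values were seen. These marker sums were close between the sides of the DRG and high where the mitotic genes were high. The part of such cells in the mitotic levels was not tested.

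Microglia and macrophage markers differed between the sides in both tissues. The 10 markers summed to 681 FPKM in ipsilateral and 142 in contralateral cord, with 9 of them 2-fold higher and none at 0. In DRG they summed to 120.1 and 40.4 FPKM, with 7 of 10 2-fold higher. The mitotic sums given above were 1.17 times as high ipsilaterally in cord (1.74 times without Birc5 and 0.83 times without Ccna2) and 0.948 times in DRG. The T cell markers stayed under 1 FPKM in all 4 libraries. The other lists were for satellite glia, Schwann cells, endothelial cells, fibroblasts, astrocytes, oligodendrocytes and their precursors, ependymal cells and neurons. Their medians lay between -0.45 and 0.79 in DRG and between -0.35 and 0.69 in cord. The highest DRG median was that of the 5 fibroblast markers, all above 0, which summed to 643.5 FPKM ipsilaterally and 331.0 contralaterally. Of the 6 astrocyte markers in DRG, 1 was 2-fold higher ipsilaterally and 2 (Aqp4 and Slc1a2) 2-fold lower.

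**Figure D4:**
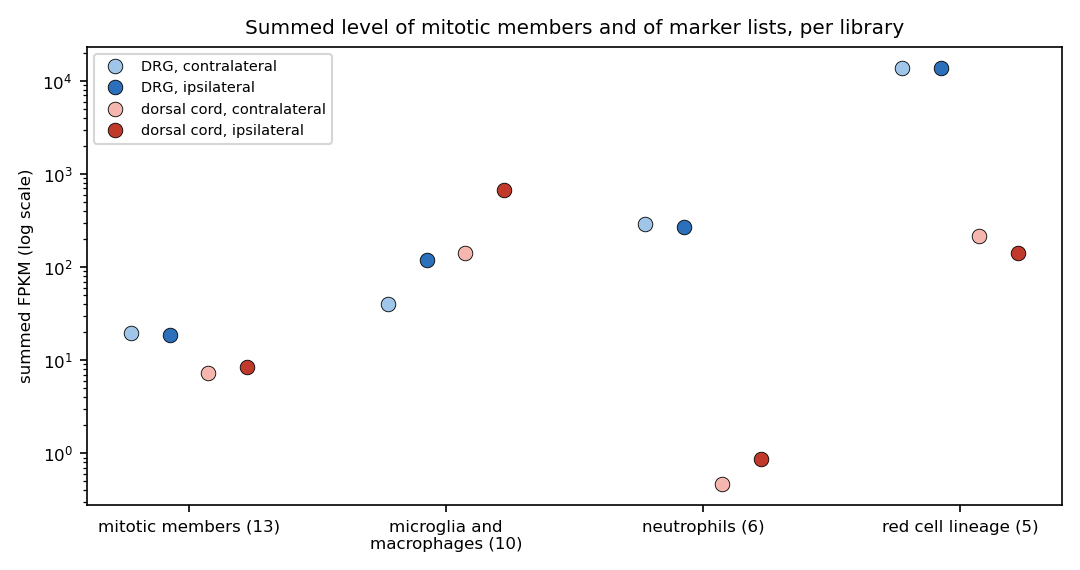
Summed FPKM on a log axis of the 13 mitotic members and of 3 marker lists, with 1 point per library. The mitotic sum lies between 7.26 and 19.6 FPKM, with both DRG points above both cord points, as for the neutrophil and red cell lists, while the microglia and macrophage sum is highest in ipsilateral cord.

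Further genes of the cycle were taken from 8 lists. Without the 36 members, 148 of their genes were measured in DRG and 142 in cord. In DRG 4 (2.70%) were 2-fold higher and 1 (0.676%) 2-fold lower, against 3.04% and 0.784% of all measured features, and the median was 0.12. In cord 3 (2.11%) were 2-fold higher and 0 2-fold lower, against 4.46% and 1.64%, and the median was -0.10. These shares are under the background. In DRG the median was 0.37 over 12 antiproliferative genes, 0.20 over 16 genes of the anaphase-promoting complex, 0.20 over 25 cyclin and CDK genes that act outside the division cycle, and 0.18 over 16 E2F, RB and DREAM regulators. It was near 0 over 33 DNA replication genes (0.01), 28 mitosis and spindle genes (-0.01) and 11 nucleotide supply genes (0.07), and -0.12 over 11 G1 regulators.

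Cdkn1a, encoding the p21 inhibitor of CDKs, stood at 146 FPKM in ipsilateral and 31.4 in contralateral DRG, and at 4.84 and 7.18 in cord. It had the largest log2 ratio of the lists in DRG, 2.18, with a plain fold of 4.64 (interval 3.23 to 6.67), and in cord it was lower ipsilaterally (-0.49). Btg2, an antiproliferative gene, was at 6.86 and 2.04 FPKM in DRG (1.37) and 5.22 and 2.64 in cord (0.78). Both genes were thus higher in ipsilateral DRG, where the authors' deposited table calls them. In cord, where it calls neither, Btg2 was higher ipsilaterally by less than 2-fold (q = 0.149). Any link of these levels to those of Mki67 and Top2a was not tested.

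A few spindle genes did differ in DRG. Prc1, which bundles microtubules at the cell midzone, stood at 9.14 FPKM ipsilaterally and 1.90 contralaterally (1.80), a plain fold of 4.80 (interval 2.89 to 7.97). Kif22, a chromosome-binding kinesin gene, was at 3.75 against 0.943 FPKM (1.29). Cdca3, a mitotic entry gene, was lower, at 0.304 against 1.66 FPKM (-1.03). The authors' deposited table calls all 3 significant. In the other direction from Cdkn1a, Fbxw7, a ubiquitin ligase gene that targets cyclin E, was at 41.8 against 62.0 FPKM (-0.56).

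In cord the DNA replication list was even, with 17 of its 34 measured genes above 0 and 17 below and a median of 0.01. Gins1 and Gins2 encode subunits of the replicative helicase, and stood at 8.13 against 2.21 FPKM (1.51) and 2.82 against 0.877 (1.03) in ipsilateral and contralateral cord. The authors' deposited table calls neither (q = 0.0947 and 0.212). Pole, a replicative polymerase gene, was at 1.85 against 0.568 FPKM (0.86) and is called in the authors' deposited table (q = 0.0161). Rpa3, encoding the small subunit of the single-strand binding protein RPA, was lower, at 3.27 against 7.38 FPKM (-0.97). The interval of the Rpa3 fold, 0.168 to 1.17, spanned 1, and Rpa3 is not called either. Gins2 shares its listed locus with Gse1, at 9.74 against 6.89 FPKM.

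E2f4, the E2F factor of the DREAM complex in resting cells, was at 14.8 against 6.37 FPKM in cord (1.10) and at 7.49 against 5.67 in DRG (0.35). Its list as a whole went the other way in cord. Of its 15 measured E2F, RB and DREAM regulators outside the members, 3 were above 0 ipsilaterally, E2f4 among them, and 12 below. The median of these 15 was -0.16. Dck, a nucleotide salvage kinase gene, was at 4.56 against 9.88 FPKM in cord (-0.97), and Nek2, a centrosome kinase gene, at 0.256 against 1.23 (-0.83). Of 23 measured mitosis and spindle genes outside the members, 18 were below 0 in ipsilateral cord and 5 above. Their median was -0.31, with 0 past 2-fold. These 23 are a part of 55 listed genes, the rest being under 1 FPKM in both cord libraries. Detection went the other way, with 2 of the 55 at 0 ipsilaterally and 8 contralaterally. Over all 21883 features, 5586 and 6138 were at 0. Of all measured features in cord, 51.6% had a log2 ratio above 0.

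**Figure D5:**
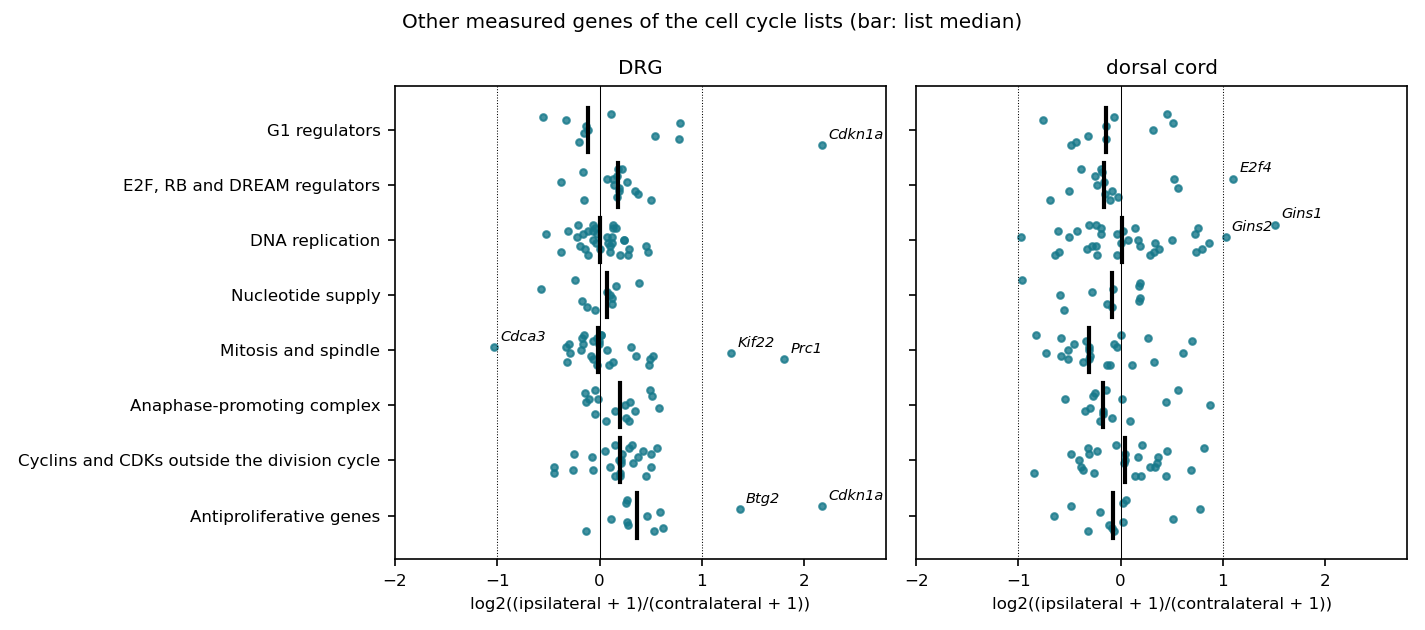
Log2 ratios of the measured genes of the 8 cell cycle lists outside the 36 members, with 1 point per gene and a black bar at each list's median. Named points are 2-fold or more, which are Cdkn1a, Btg2, Prc1, Kif22 and Cdca3 in DRG and Gins1, E2f4 and Gins2 in cord. Cdkn1a appears in 2 lists.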

How the data were processed

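RNA was measured in 4 libraries, 1 per side of DRG and of dorsal cord. Per the labels' protocols, the kits were RNeasy Mini (QIAGEN) for RNA and ScriptSeq mRNA-Seq (Epicentre) for libraries. The submitters' processing notes name TopHat 1.4.0, Cuffdiff 1.3.0 and mm9. No annotation, filter or strand setting is named there. The authors' deposited tables, 1 per tissue, hold FPKM for each library. The authors' deposited p-values and q-values, log2 fold changes and test statistics each set a single library against another, and say nothing of variation between animals. The deposited p-values matched a two-sided normal test of the statistic for 100% of features with both libraries above 0 (tolerance 0.001), so the log2 fold divided by the statistic was taken as its standard error.

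Ratios with a pseudocount of 1 FPKM, counts and medians were computed with Python 3.11.15, pandas 2.3.3 and numpy 2.4.6, and the ratio and count steps were tested on simulated data. Genes reaching 1 FPKM in a library of the tissue were kept. No test was made, and no columns of other samples were left out (0). All 36 members are described, and of each of the 8 wider lists up to 4 genes per tissue with the largest absolute log2 ratio could be named. Markers of 14 cell types were summed. Members and lists were chosen with earlier results of these data known.

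Alternatives were a pseudocount of 0.1 or of 3 FPKM, leaving the filter out or raising it to 5 FPKM, 2 rescalings, the test status and the authors' calls. Rescaling across the 4 libraries, the unfiltered order of levels and sums without single genes were added after seeing the data. The depth of the libraries is unknown, so low values have no count behind them here.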

Additional observations from a re-analysis of the deposited data

Results flagged for a closer look

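For 5 members the fold between sides differed between DRG and dorsal cord by more than the 95% interval of that difference, which comes from the standard errors implied by the authors' deposited tables and covers these libraries only. The differences of the log2 folds, DRG minus cord, were 1.06 for Ccnd2 (interval 0.27 to 1.86), -2.70 for Cdk6 (-4.53 to -0.88), 3.998 for Cks2 (1.47 to 6.52), -1.47 for Mcm2 (-2.59 to -0.34) and -2.94 for Ccna2 (-4.51 to -1.37). Behind them are log2 folds of 0.85 in DRG and -0.22 in cord for Ccnd2, -0.02 and 2.69 for Cdk6, and 0.05 and -3.95 for Cks2. For Mcm2 they are -0.75 and 0.71, and for Ccna2 -1.06 and 1.88. The interval left 0 for 16.7% of the features measured in both tissues and for 22.7% of the 22 members.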

How the results depend on the processing

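No paired analysis was possible because each group has 1 library and the labels give no replicate numbers. In DRG, 0 members were 2-fold higher or lower under every alternative run. The DRG median of 0.03 became 0.15 with a filter at 5 FPKM, which keeps 10 members, and was between -0.01 and 0.04 otherwise. In cord, the 2 members that were 2-fold higher (Cdk6 and Ccna2) became 0 with a pseudocount of 3 FPKM and 0 with a filter at 5 FPKM, while Cks2 remained 2-fold lower under every alternative run. Both higher genes lie under 5 FPKM in both libraries, so that filter removes them. Of 200 recomputed values of single members, 197 moved by less than the gene's standard error and 0 past 2-fold changed sign. The 3 that moved more were the called cord genes with a pseudocount of 0.1 FPKM, Cdk6 from 1.06 to 2.29, Cks2 from -2.24 to -3.61 and Ccna2 from 1.16 to 1.76. A change of sign occurred in 4, all with a log2 ratio of at most 0.04 in size. Rescaling the 4 libraries together, added after seeing the data, gave 11 members with both DRG libraries above both cord libraries in place of 10, and 5 in place of 6 the other way. Without the filter these counts were 16 and 6. The ratio of the summed mitotic FPKM in cord went from 1.17 to 1.74 leaving out Birc5 and 0.83 leaving out Ccna2, both chosen after seeing the data. Values of low genes were imprecise, with a median standard error of the log2 fold of 0.44 in DRG and 0.57 in cord at a mean of 1 to 3 FPKM.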
